A study of Mus musculus with 6 samples.

Results

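Chemokine and receptor genes were taken by symbol and biotype from a table of read counts for 54532 genes. The family comprised 67 protein-coding entries, 44 of ligands and 23 of receptors, with 61 distinct symbols, since 5 symbols had more than 1 entry. RNA sequencing was done on the inguinal white fat depot (iWAT), which lies under the skin near the hind limb, in 3 libraries from estrogen-treated and 3 libraries from vehicle-treated mice. All 6 libraries came from old mice kept in the cold for 7 days, a stimulus that induces heat-producing beige adipocytes. The series asks how estrogen alters RNA levels in this tissue in old animals. The sources used here give no sex, strain, age in numbers, or form, dose and route of estrogen. Whether libraries stem from separate animals is unstated, so p-values reflect only sample-to-sample spread, and some of that may be technical.

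Chemokines are small secreted proteins that direct the movement of leukocytes, and they act through seven-transmembrane receptors that couple to inhibitory G proteins. Inflammatory chemokines are induced in stressed or infected tissue and draw in neutrophils and monocytes, while homeostatic ones position lymphocytes in lymphoid organs and hold progenitor cells in place. Atypical receptors bind chemokines without G protein signalling and transport or scavenge them. In white fat, monocyte-attracting chemokines and their receptors are best known for the recruitment of macrophages in obesity and ageing.

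Of the 67 entries, 59 had at least 1 count, 42 passed the filter on low counts and were tested (27 ligands and 15 receptors), and 8 had no count in any library. Among the tested members, 31 reached the filter's minimum of 0.525 CPM (the usual unit of read counts scaled to library size) in all 6 libraries. The other 11 reached it in every vehicle library but not in every estrogen library, so they could enter the test through the vehicle group alone. These were Ccl3, Ccl4, Ccl17, Ccl22, Ccl28, Cxcl1, Cxcl2, Cxcl3, Cxcl5, Ccr3 and Cx3cr1. Counts over tested members are therefore descriptions of the members that passed.

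Total counts ran from 16046601 to 19263623 in estrogen libraries and from 19014779 to 20736771 in vehicle libraries. The tissue label was matched by its markers, as all 10 adipocyte genes listed were detected, with a summed level of 28147 to 45976 CPM with estrogen and 19636 to 26213 CPM with vehicle. A pair of libraries stood apart, and not for the chemokine genes alone. Estrogen replicate 3 had the lowest level of 28 of the 42 tested members, and vehicle replicate 1 had the highest level of 18. Estrogen replicate 3 also had the lowest summed fibroblast and macrophage markers (1465 and 513 CPM) and the highest adipocyte sum (45976 CPM). Estrogen replicates 1 and 3 also carried more B cell RNA than the other libraries.

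Ligand RNA as a whole lay lower with estrogen. The 44 ligand entries summed to 1047, 1197 and 636 CPM in estrogen replicates 1 to 3, and to 2679, 1617 and 1507 CPM in vehicle replicates 1 to 3. Every estrogen library lay below every vehicle library, and the ratio of the group means was -1.01 on the log2 scale. Ccl6 and Ccl9 made up 41.6, 48.6 and 20.7% of ligand counts in estrogen replicates 1 to 3 and 62.1, 56.45 and 41.7% in vehicle replicates 1 to 3. Without them the ligand sum was 611, 615 and 504 CPM with estrogen and 1016, 704 and 878 CPM with vehicle, and the groups again did not overlap. Receptor RNA showed the same order. The 23 receptor entries summed to 214, 198 and 80.0 CPM in estrogen replicates 1 to 3 and to 401, 439 and 256 CPM in vehicle replicates 1 to 3. The log2 ratio of the group means was -1.15. The difference lay in the CC and atypical receptors. The 8 CXC, CX3C and XC receptors averaged 21.9 CPM with estrogen and 21.8 CPM with vehicle. In bulk tissue, fewer cells of a type and less RNA per cell cannot be told apart.

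No ligand or receptor passed the test across all genes. By edgeR's quasi-likelihood test with Benjamini-Hochberg adjustment over 15591 genes, 0 members were called in either direction (smallest adjusted p = 0.207), as were 0.00% of all genes. By limma-voom 0 members were called. By DESeq2, 5 of the 37 members with an adjusted p were lower past 0.05 (13.5%, against 3.34% of all genes with one) and 0 were higher (against 2.75%). These were Ackr1, Ccl3, Ccl12, Ccr2 and Cxcl1, of which Ccl3 and Cxcl1 could enter the test through the vehicle group alone. At an unadjusted p under 0.05 in edgeR, 19 members were lower (45.2%, against 10.9% of all tested genes) and 1 was higher (2.38%, against 9.49%). Among the 31 members at the filter's minimum in all 6 libraries, 14 were lower at that p (45.2%), against 11.2% of all genes that met the same minimum. Every estrogen library lay below every vehicle library for 15 members (35.7%, against 14.7% of all tested genes) and above for 1 (2.38%, against 12.8%). Of these 15, Ccl3, Cxcl1, Cxcl2 and Cxcl5 could enter the test through the vehicle group alone. At an unadjusted p under 0.05, 9 members were lower without vehicle replicate 1 (21.4%, against 9.02% of all genes) and 11 without estrogen replicate 1 (26.2%, against 11.3%).

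The medians of ligands and receptors lay close together. The median log2 fold change, estrogen over vehicle, was -0.98 over the 27 tested ligands and -0.86 over the 15 tested receptors, against 0.0025 over all tested genes. Of the ligands 18 were negative and 9 positive, and of the receptors 11 were negative and 4 positive, where 49.7% of all tested genes were negative. At an unadjusted p under 0.05, 14 ligands (51.9%) and 5 receptors (33.3%) were lower, and the difference between the classes was not tested. In a fit without the filter, the median was -0.85 over 36 ligands and -0.26 over 23 receptors with any count, so the closeness of the classes depended on which receptors were included.

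**Figure D1:**
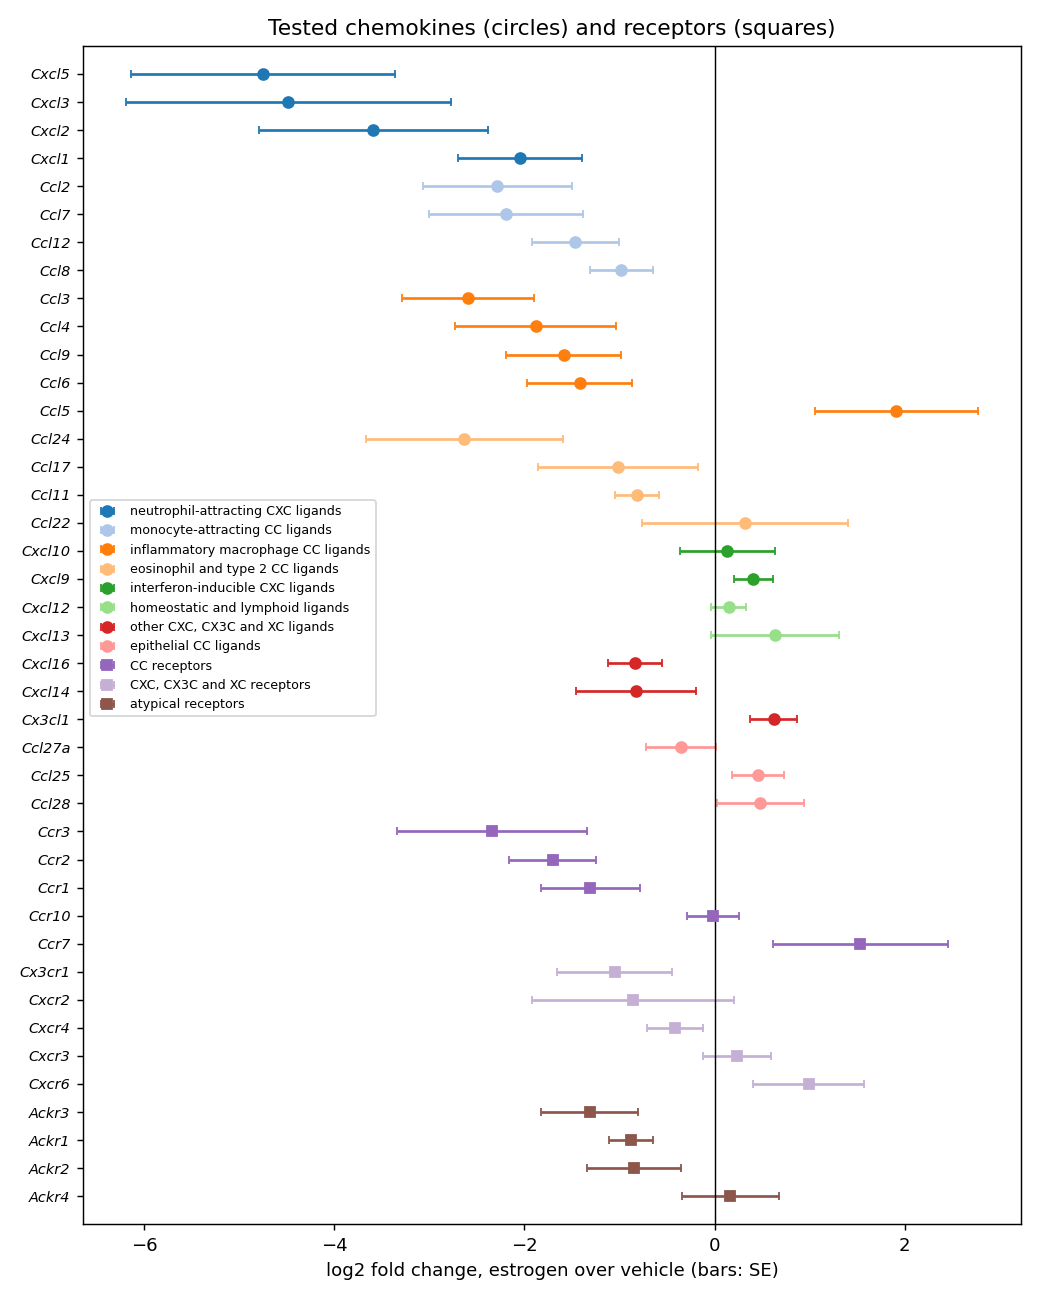
Log2 fold change, estrogen over vehicle, of 41 of the 42 tested members (x axis; bars show the standard error), ordered by role, with ligands as circles and receptors as squares. Neutrophil-attracting and monocyte-attracting ligands lie to the left of 0, down to -4.75 for Cxcl5, while interferon-inducible and homeostatic ligands lie near 0.

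**Figure D2:**
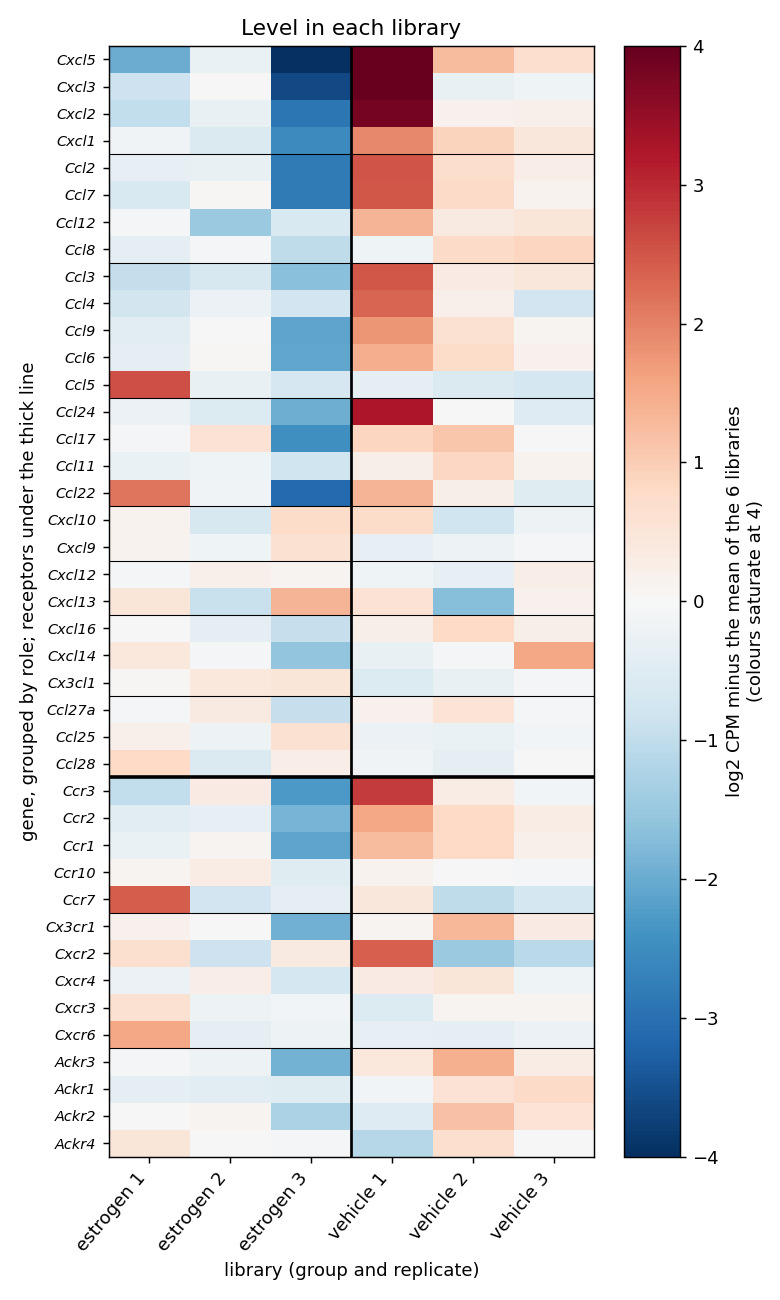
Log2 CPM of 41 of the 42 tested members relative to its mean over the 6 libraries, with estrogen libraries left of the line and vehicle libraries right of it, and receptors under the thick horizontal line. Estrogen replicate 3 holds the lowest value of 28 of the 42 tested members and vehicle replicate 1 the highest of 18.

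The neutrophil-attracting ligands, which act on Cxcr2, had the lowest fold changes of any role. The 4 tested genes lie in a run on chromosome 5, between 90759360 and 90905938 (mm10), that also holds Cxcl15, which had no count. Cxcl5 was at 0.363, 1.44 and 0.00 CPM in estrogen replicates 1 to 3 and at 41.6, 4.35 and 2.86 CPM in vehicle replicates 1 to 3. Cxcl2 was at 1.35, 2.23 and 0.279 CPM with estrogen and at 40.7, 3.14 and 3.25 CPM with vehicle. Cxcl1 was at 3.06, 2.23 and 0.488 CPM with estrogen and at 13.2, 6.43 and 4.64 CPM with vehicle. For these 3 genes the groups did not overlap, and vehicle replicate 1 stood far above the other vehicle libraries for Cxcl5 and Cxcl2. Cxcl3 was at 0.622, 1.18 and 0.00 CPM with estrogen and at 39.3, 0.961 and 1.04 CPM with vehicle, so its groups overlapped and its high vehicle mean came from 1 library. The log2 fold changes were -4.75 ± 1.39 (SE) for Cxcl5, -4.48 ± 1.71 for Cxcl3, -3.59 ± 1.20 for Cxcl2 and -2.05 ± 0.65 for Cxcl1 (edgeR adjusted p = 0.207, 0.220, 0.207 and 0.207). Of these, DESeq2 called Cxcl1 (adjusted p = 0.0335) and gave no adjusted p for Cxcl2 and Cxcl3.

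Vehicle replicate 1 set the size of these values. Without it, the median of the 4 genes was -1.40 in place of -4.04, with Cxcl5 at -2.58, Cxcl1 at -1.50, Cxcl2 at -1.30 and Cxcl3 at -0.72. Their receptor gene Cxcr2, carried by neutrophils, was at 2.54, 0.851 and 2.09 CPM with estrogen and at 8.84, 0.506 and 0.694 CPM with vehicle. Its log2 fold change of -0.86 ± 1.06 was 1.60 without vehicle replicate 1, so its direction rested on that library. The other neutrophil receptor gene, Cxcr1, had 0, 1 and 0 counts with estrogen and 9, 0 and 1 counts with vehicle. The summed level of 11 neutrophil markers was 40.6 to 44.9 CPM with estrogen and 41.9 to 183 CPM with vehicle, where the top value was that of vehicle replicate 1. Of the 6 neutrophil markers tested, 5 were negative (median -1.16), while Elane was positive (1.03). Csf3r, of smallest p among them, was at 10.9, 13.8 and 10.5 CPM with estrogen. With vehicle it was at 52.0, 22.4 and 17.7 CPM, without overlap (-1.38). Mpo, Ly6g, Camp, Ngp and Ltf were at 0 to 13 counts in every library. The part of neutrophil RNA in these results was not tested.

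The promoters of Cxcl1, Cxcl2 and Cxcl3 are shown because these genes of the same run all had negative fold changes and each holds a kappaB core. That is the core of the binding site of NF-kappaB, the transcription factor that induces inflammatory chemokines. The RefSeq promoter table (GRCm38.p6, 250 bases before to 50 after the start) held 46 of the 61 symbols, and Cxcl5, Ccl2 and Ccl7 were not among them. The core GGNNTTTCC, searched on both strands, was found in 1913 of 32851 promoters (5.82%). In the family it was found in 9 of 53 promoters, those of 9 of the 46 chemokine and receptor genes. Cxcl1, Cxcl2, Cxcl3, Ccl9 and Ccr3 among them had negative fold changes. Cxcl9, Cxcl10 and Ackr4 had positive ones, and Ccl20 was untested. The match GGAATTTCC stands at -70 to -62 in Cxcl1, -96 to -88 in Cxcl2 and -72 to -64 in Cxcl3, counted from the start of transcription, and Cxcl1 and Cxcl2 each hold another match. The promoter of Cxcl10 is shown beside them. It holds 1 kappaB core and 1 core of the interferon-stimulated response element. The latter, searched as GAAANNGAA on both strands, was found in 2812 promoters (8.56%) and in 8 of the 53 promoters of the family. These were of Ccl3, Ccr2 and Cxcl14, which had negative fold changes, Cxcl9 and Cxcl10, which had positive ones, and the untested Ccl1, Ccl19 and Cxcr1. The 2 kinds of match do not overlap in the Cxcl10 promoter. Each line gives 100 bases on the strand of the gene, 5′ to 3′, with the matches in capitals. The windows are chr5:90891126-90891225, plus strand, for Cxcl1, chr5:90903773-90903872, plus strand, for Cxcl2, chr5:90785999-90786098, plus strand, for Cxcl3, and chr5:92349033-92349132, minus strand, for Cxcl10. A match is a description of these letters and does not show that a factor binds there.
Cxcl1: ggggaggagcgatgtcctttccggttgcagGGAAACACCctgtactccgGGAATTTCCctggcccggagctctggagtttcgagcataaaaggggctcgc
Cxcl2: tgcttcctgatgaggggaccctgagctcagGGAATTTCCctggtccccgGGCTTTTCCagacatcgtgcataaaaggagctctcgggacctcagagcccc
Cxcl3: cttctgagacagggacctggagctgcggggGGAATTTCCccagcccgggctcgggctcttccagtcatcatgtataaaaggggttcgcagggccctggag
Cxcl10: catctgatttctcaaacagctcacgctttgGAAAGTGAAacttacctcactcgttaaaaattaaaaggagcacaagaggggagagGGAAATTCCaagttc

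The genes around the NF-kappaB pathway that induce chemokines were mostly negative. Of 20 inducers listed, 18 were tested. Of these 17 were negative (median log2 fold change -0.43), against 49.7% of all tested genes. By edgeR 0 passed adjustment, as did 0.00% of all genes. At an unadjusted edgeR p under 0.05, 8 were lower, where 10.9% of all tested genes were. DESeq2 called 2 lower, against 3.34% of all genes with an adjusted p. The members of smallest p were Tlr2, Il6, Nfkb2 and Il1b. Tlr2, a receptor for bacterial lipoproteins, had 145, 132 and 54 counts with estrogen and 496, 432 and 315 counts with vehicle. Il1b, a cytokine that induces CXC chemokines, had 27, 19 and 23 counts with estrogen and 572, 41 and 106 counts with vehicle, so it shared the high value of vehicle replicate 1. Il6 had 4, 4 and 0 counts with estrogen and 29, 18 and 20 counts with vehicle. Nfkb2, an NF-kappaB subunit, had a log2 fold change of -0.46 ± 0.13.

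Monocyte-attracting ligands were negative in all 4 genes of the role, with a median log2 fold change of -1.83. They lie with Ccl11 on chromosome 11 between 82035571 and 82305690, where all 5 tested genes were negative and had an unadjusted p under 0.05. Ccl2, the main ligand of Ccr2, was at 15.7, 15.98 and 2.72 CPM in estrogen replicates 1 to 3 and at 113, 32.3 and 23.7 CPM in vehicle replicates 1 to 3. Ccl7, which also acts on Ccr2, was at 11.9, 19.1 and 2.51 CPM with estrogen and at 103, 31.3 and 19.96 CPM with vehicle. Both were separated between the groups, with 1 low estrogen and 1 high vehicle library. Ccl12, a further Ccr2 ligand of the mouse, was at 2.95, 1.05 and 2.02 CPM with estrogen and at 8.23, 4.10 and 4.43 CPM with vehicle, again without overlap. Ccl8, which in the mouse acts on Ccr8, was at 104, 127 and 66.3 CPM with estrogen and at 119, 225 and 243 CPM with vehicle, and its groups overlapped. The log2 fold changes were -2.29 ± 0.78 for Ccl2, -2.20 ± 0.81 for Ccl7, -1.46 ± 0.46 for Ccl12 and -0.98 ± 0.33 for Ccl8 (edgeR adjusted p = 0.208, 0.214, 0.207 and 0.207), and DESeq2 called Ccl12 (adjusted p = 0.0452). Without vehicle replicate 1, Ccl2 was at -1.28 and Ccl7 at -1.20, while Ccl8 was at -1.24.

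Among the ligands of inflammatory macrophages, 4 of 5 tested genes were negative, and Ccl5 was the exception. Ccl6, which acts on Ccr1 and has no direct human counterpart, was at 289, 383 and 86.5 CPM in estrogen replicates 1 to 3 and at 1001, 612 and 416 CPM in vehicle replicates 1 to 3. Ccl9, its neighbour with the same receptor, was at 147, 199 and 45.3 CPM with estrogen and at 662, 300 and 213 CPM with vehicle. For both genes the groups did not overlap, and estrogen replicate 3 was lowest. Ccl3, which acts on Ccr1, was at 0.985, 1.24 and 0.557 CPM with estrogen and at 11.6, 2.58 and 2.82 CPM with vehicle. The log2 fold changes were -1.42 ± 0.55 for Ccl6, -1.59 ± 0.60 for Ccl9 and -2.60 ± 0.69 for Ccl3 (edgeR adjusted p = 0.223, 0.219 and 0.207), and DESeq2 called Ccl3 (adjusted p = 0.0117). Without vehicle replicate 1, Ccl9 was at -0.98 and Ccl3 at -1.53. Ccl4, a close relative of Ccl3, overlapped between the groups at 0.557 to 0.851 CPM with estrogen and 0.564 to 5.59 CPM with vehicle. Ccl5, which lies in the same run on chromosome 11 (83525778 to 83664683) and is made by T and NK cells, was at 19.4, 2.55 and 1.95 CPM with estrogen and at 2.44, 2.07 and 1.87 CPM with vehicle. Its log2 fold change of 1.91 ± 0.86 was 0.08 without estrogen replicate 1.

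Per kilobase of gene length, the scale on which genes can be compared, Ccl8 had the highest mean over the 6 libraries, at 289 CPM per kb. Ccl6 followed at 259 and Ccl9 at 85.7 CPM per kb. Ccl7, Ccl11, Cxcl14, Cxcl12 and Ccl2 lay between 39.0 and 29.7 CPM per kb. The order depended on the group, since Ccl7 averaged 13.9 CPM per kb with estrogen and 64.0 with vehicle, and Cxcl12 averaged 32.5 CPM per kb with estrogen and 29.3 with vehicle. The neutrophil-attracting ligands, with the lowest fold changes, were low in level, from 4.53 CPM per kb for Cxcl5 to 2.05 CPM per kb for Cxcl3. Receptors were lower than the leading ligands, with Ackr3 at 28.0, Ackr1 at 11.7, Ccr1 at 9.70, Ccr2 at 7.52 and Cxcr4 at 5.62 CPM per kb.

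**Figure D3:**
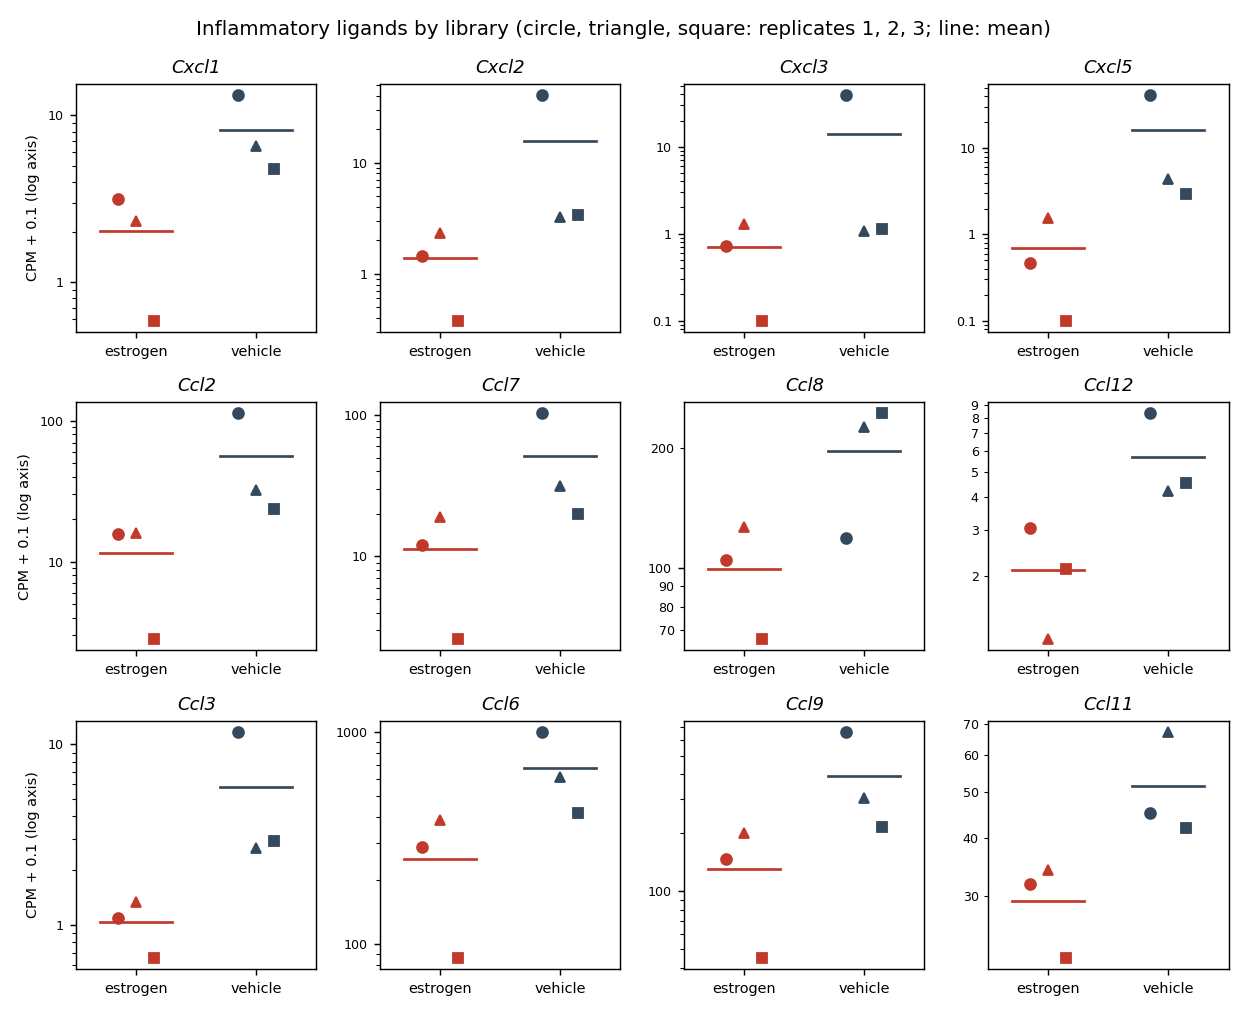
CPM plus 0.1 (log axis) of 12 inflammatory ligands in each library, with estrogen left and vehicle right, symbols for replicates and lines for group means. Ccl3, Ccl6, Ccl9, Ccl2, Ccl7, Ccl12, Ccl11, Cxcl1, Cxcl2 and Cxcl5 do not overlap between the groups, while Cxcl3 and Ccl8 do.

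Eosinophil-attracting and type 2 ligands were mixed. Ccl11 (eotaxin), which acts on Ccr3, was at 31.7, 33.9 and 22.0 CPM with estrogen and at 45.02, 67.3 and 41.8 CPM with vehicle, without overlap (log2 fold change -0.81 ± 0.23, edgeR adjusted p = 0.207). Ccl24, a second eotaxin, was at 11.2, 8.90 and 3.34 CPM with estrogen and at 124, 13.4 and 9.11 CPM with vehicle, with overlap and with vehicle replicate 1 far above the rest. The Ccr4 ligands Ccl17 and Ccl22 overlapped between the groups, with log2 fold changes of -1.02 ± 0.84 and 0.32 ± 1.08. Ccl1 and Ccl26 had no count. Ccr3, the eotaxin receptor, was at 0.674, 1.83 and 0.209 CPM with estrogen and at 10.7, 1.82 and 1.34 CPM with vehicle, so its high level was again in vehicle replicate 1. Of 9 eosinophil and mast cell markers, Epx had no count, and 5 of the 6 tested were positive (median 0.26), with a summed level of 88.6 to 126 CPM with estrogen and 74.2 to 110 CPM with vehicle. The positive genes were the mast cell markers Mcpt4, Cma1, Cpa3, Kit and Fcer1a. Siglecf, the only eosinophil marker tested, was negative, with 10, 9 and 3 counts with estrogen and 88, 33 and 18 counts with vehicle. The eosinophil markers Il5ra and Prg2 did not pass the filter. The part of these cells in the Ccl11 and Ccr3 values was not tested.

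Of the 6 tested CC receptors, 5 were negative, 3 of them at an unadjusted p under 0.05, and the median log2 fold change was -1.43. Ccr1, Ccr3 and Ccr2 stand near each other on chromosome 9, and all 3 were negative, while Cxcr6 in the same region was positive. Ccr2, the receptor by which monocytes leave the bone marrow and enter tissue, was at 29.4, 31.4 and 10.7 CPM in estrogen replicates 1 to 3 and at 116, 68.3 and 48.8 CPM in vehicle replicates 1 to 3. The groups did not overlap, the log2 fold change was -1.70 ± 0.46 (edgeR adjusted p = 0.207), and DESeq2 called it (adjusted p = 0.0133). Leaving out single libraries kept Ccr2 between -1.95 and -1.29. Ccr1, the receptor of Ccl6, Ccl9 and Ccl3, was at 18.4, 24.0 and 5.01 CPM with estrogen and at 53.0, 38.8 and 25.7 CPM with vehicle, without overlap (log2 fold change -1.31 ± 0.52, adjusted p = 0.228). Cx3cr1, a receptor of patrolling monocytes and some tissue macrophages, overlapped at 0.418 to 2.13 CPM with estrogen and 2.03 to 4.91 CPM with vehicle.

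Macrophage markers were negative throughout, and monocyte and dendritic cell markers were mixed. All 12 macrophage markers tested were negative (median -1.03), with a summed level of 513 to 1305 CPM with estrogen and 1645 to 2503 CPM with vehicle, and none was at 0. Of the 10 monocyte and dendritic cell markers 6 were negative (median -0.43), and their sum was 188 to 350 CPM with estrogen and 473 to 637 CPM with vehicle. Within them Itgax, an integrin of dendritic cells and fat macrophages, had 220, 117 and 50 counts with estrogen and 458, 601 and 455 counts with vehicle. Ly6c2, a marker of classical monocytes, had 274, 71 and 92 counts with estrogen and 106, 59 and 66 counts with vehicle. Its log2 fold change was 1.17, and its CPM values overlapped between the groups. Plac8, of the same list, lay the other way, with 416, 306 and 208 counts with estrogen. With vehicle it had 886, 869 and 538 counts, without overlap (log2 fold change -0.999). F13a1, also of this list, was lower with estrogen without overlap (-0.966). Siglech, a marker of plasmacytoid dendritic cells, had 87, 26 and 66 counts with estrogen and 15, 28 and 32 counts with vehicle. The part of macrophage and monocyte RNA in the chemokine and receptor values was not tested.

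A list of 23 partners of the family held G proteins, arrestins, kinases and other signalling genes, the platelet chemokines Pf4 and Ppbp, the atypical receptor Ccrl2 and the peptidase Dpp4. All 23 were tested and 19 were negative, with a median log2 fold change of -0.40, where 49.7% of all tested genes were negative. At an unadjusted edgeR p under 0.05, 5 were lower and 1 higher, where 10.9% and 9.49% of all tested genes were. After adjustment 0 were called by edgeR (0.00% of all genes) or by DESeq2 (3.34% lower and 2.75% higher). Those of smallest p were Arrb2, a beta-arrestin that ends receptor signalling (-0.32), Pik3r5, a regulatory subunit of the leukocyte PI3-kinase gamma (-0.90), Vav1, an exchange factor for Rac (-0.88), and Gnai3, an inhibitory G protein subunit (-0.39). Ptk2b, a kinase activated by calcium signals, was the 1 partner higher at that p (0.38). Pf4 was at -1.33 ± 0.62 and Ppbp at -2.61 ± 1.26, and both overlapped between the groups. Ppbp had 20, 33 and 26 counts with estrogen and 556, 22 and 28 counts with vehicle. Its high vehicle mean thus came from vehicle replicate 1. Dpp4 is also in the fibroblast and progenitor list.

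Of the 4 atypical receptors, 3 were negative. Ackr1, the Duffy receptor that carries chemokines across the walls of venules (chromosome 1, 173331886 to 173333750), was at 12.1, 11.5 and 11.1 CPM in estrogen replicates 1 to 3 and at 14.4, 23.1 and 26.3 CPM in vehicle replicates 1 to 3. The estrogen libraries were close together and all below vehicle, and the gene had the smallest unadjusted p of the family (0.00616; log2 fold change -0.88 ± 0.23, edgeR adjusted p = 0.207), with a DESeq2 adjusted p of 0.0348. Ackr1 shares an exon stretch with Cadm3 on the same strand, so its count is uncertain to that extent. Ackr3, which scavenges Cxcl12 (chromosome 1, 90203980 to 90216751), was at 74.4, 66.4 and 20.4 CPM with estrogen and at 102, 206 and 93.2 CPM with vehicle, without overlap (-1.31 ± 0.51, adjusted p = 0.223), and without vehicle replicate 2 its log2 fold change was -0.86. Ackr2, a scavenger of inflammatory CC chemokines, overlapped at 3.48 to 9.17 CPM with estrogen and 5.95 to 19.4 CPM with vehicle, as did Ackr4, which scavenges Ccl19 and Ccl21 (0.17 ± 0.51). Of 8 endothelial markers 7 were positive (median 0.33), with a sum of 628 to 836 CPM with estrogen and 495 to 738 CPM with vehicle. The groups overlapped for all 8, and their part in the Ackr1 value was not tested. Fibroblast and progenitor markers were negative in 11 of 11 genes (median -1.26), with a sum of 1465 to 8779 CPM with estrogen and 12636 to 34564 CPM with vehicle. Their part in the Ackr3 value was not tested.

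**Figure D4:**
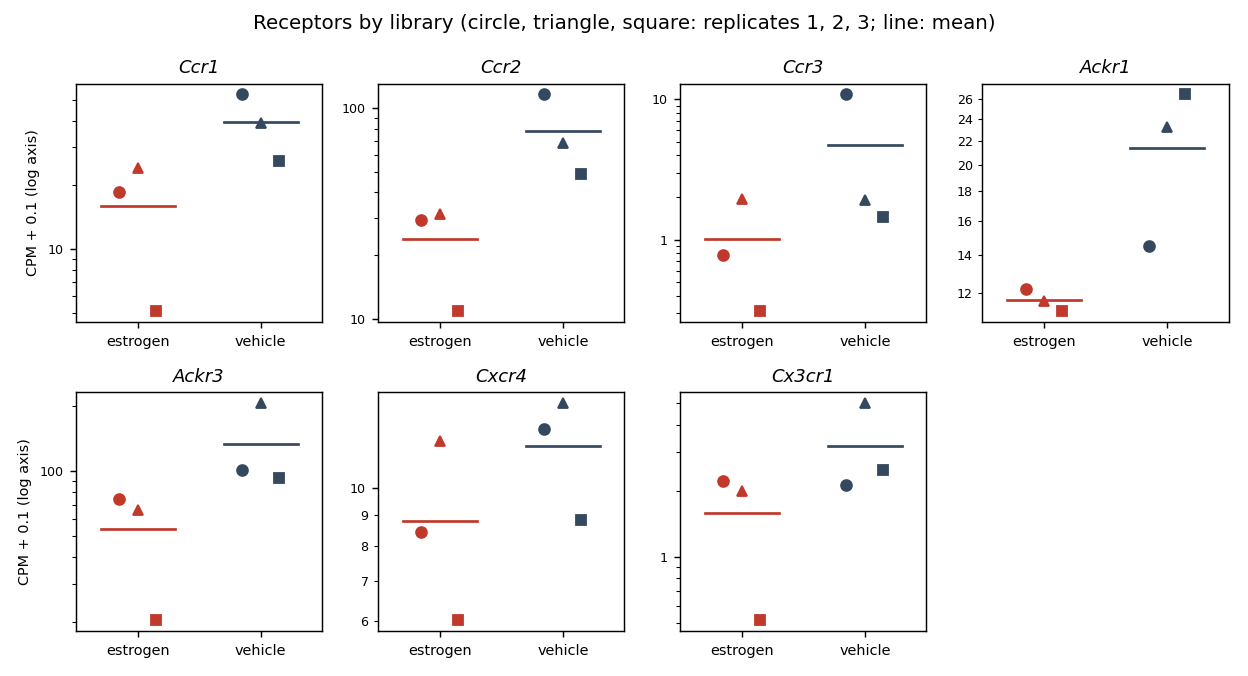
CPM plus 0.1 (log axis) of 7 receptor genes in each library, with estrogen left and vehicle right, symbols for replicates and lines for group means. Ccr1, Ccr2, Ackr1 and Ackr3 do not overlap between the groups, while Ccr3, Cxcr4 and Cx3cr1 do.

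The 2 tested homeostatic and 2 tested interferon-inducible ligands all had positive log2 fold changes, with overlap between the groups and with the sign turned for Cxcl12 and Cxcl10 under scaling by library totals. Cxcl12, the ligand of Cxcr4 and Ackr3 that stromal cells make (chromosome 6, 117168535 to 117181367), was at 237, 290 and 269 CPM in estrogen replicates 1 to 3 and at 222, 199 and 297 CPM in vehicle replicates 1 to 3. Its log2 fold change was 0.15 ± 0.18 (edgeR adjusted p = 0.660) and was -0.034 when libraries were scaled by their totals alone. Its signalling receptor Cxcr4 was at 8.35, 11.9 and 5.92 CPM with estrogen and at 12.4, 13.7 and 8.72 CPM with vehicle (-0.41 ± 0.29, adjusted p = 0.441), with overlap. Cxcl9, which attracts T cells through Cxcr3 after interferon gamma, was at 23.1, 18.8 and 31.8 CPM with estrogen and at 16.9, 18.5 and 20.2 CPM with vehicle, with overlap (0.41 ± 0.20, adjusted p = 0.289). Cxcl10 overlapped between the groups, at 5.03, 2.88 and 7.66 CPM with estrogen and at 7.67, 2.58 and 3.90 CPM with vehicle, and its sign turned under library totals (-0.044). Cxcr3 was at 3.37, 1.90 and 2.02 CPM with estrogen and at 1.47, 2.38 and 2.34 CPM with vehicle (0.24 ± 0.36).

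Of the remaining ligands, Cx3cl1 (fractalkine, a membrane-bound ligand of Cx3cr1 on endothelium and other cells) was the 1 tested member with every estrogen library above every vehicle library. It was at 4.92, 6.42 and 6.76 CPM with estrogen and at 3.25, 3.90 and 4.56 CPM with vehicle (0.63 ± 0.25, edgeR adjusted p = 0.226). Cxcl16, the membrane-bound ligand of Cxcr6, lay the other way, at 10.7, 8.18 and 5.57 CPM with estrogen and at 12.6, 18.6 and 12.6 CPM with vehicle (-0.84 ± 0.28, adjusted p = 0.208). Cxcl14, which brown fat secretes in mice, was at 65.7, 47.7 and 16.1 CPM with estrogen and at 40.0, 46.1 and 144 CPM with vehicle (-0.83 ± 0.63), and was at 0.0056 without vehicle replicate 3. Ccl27a, a ligand of Ccr10, was at 4.25, 5.76 and 2.298 CPM with estrogen and at 5.03, 6.53 and 4.17 CPM with vehicle (-0.35 ± 0.37). Ccl25, Ccl28 and Ccr10 also overlapped between the groups, with log2 fold changes of 0.46, 0.48 and -0.02. Exons of Cxcl16, Cxcl10, Ccl27a, Ccl25, Ackr4 and Cx3cr1 overlap a gene on the opposite strand, and whether counting used the strand is not given in the sources used here.

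Among ligands and receptors that organise lymphoid tissue, Cxcr5 and Ccr6 had their highest counts in estrogen replicates 1 and 3, and Ccr7 and Ccl21a in estrogen replicate 1. Cxcl13, which draws B cells through Cxcr5, was at 29.0, 11.2 and 53.8 CPM in estrogen replicates 1 to 3 and at 31.1, 6.22 and 23.2 CPM in vehicle replicates 1 to 3 (log2 fold change 0.63 ± 0.67). Cxcr5 had 215, 0 and 56 counts with estrogen and 3, 8 and 3 counts with vehicle, and did not pass the filter. Ccr6, a receptor of B cells and T cell subsets, had 75, 4 and 38 counts with estrogen and 0 counts in each vehicle library, where a count of 0 allows up to 0.130 to 0.152 CPM. Ccr7, which brings T cells and dendritic cells into lymph nodes, was at 10.4, 1.05 and 1.39 CPM with estrogen and at 2.54, 0.860 and 1.08 CPM with vehicle (1.53 ± 0.92), and was at -0.30 without estrogen replicate 1. Its ligand Ccl21a had 191, 0 and 0 counts with estrogen and 9, 0 and 34 counts with vehicle at its entry on an unplaced scaffold. The 6 entries of Ccl21a, Ccl21b and Ccl21c are near-identical copies, so how reads were divided among them is uncertain. Their sum was 196, 0 and 0 counts with estrogen and 9, 0 and 37 counts with vehicle. Ccl19 had 1 count in all.

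**Figure D5:**
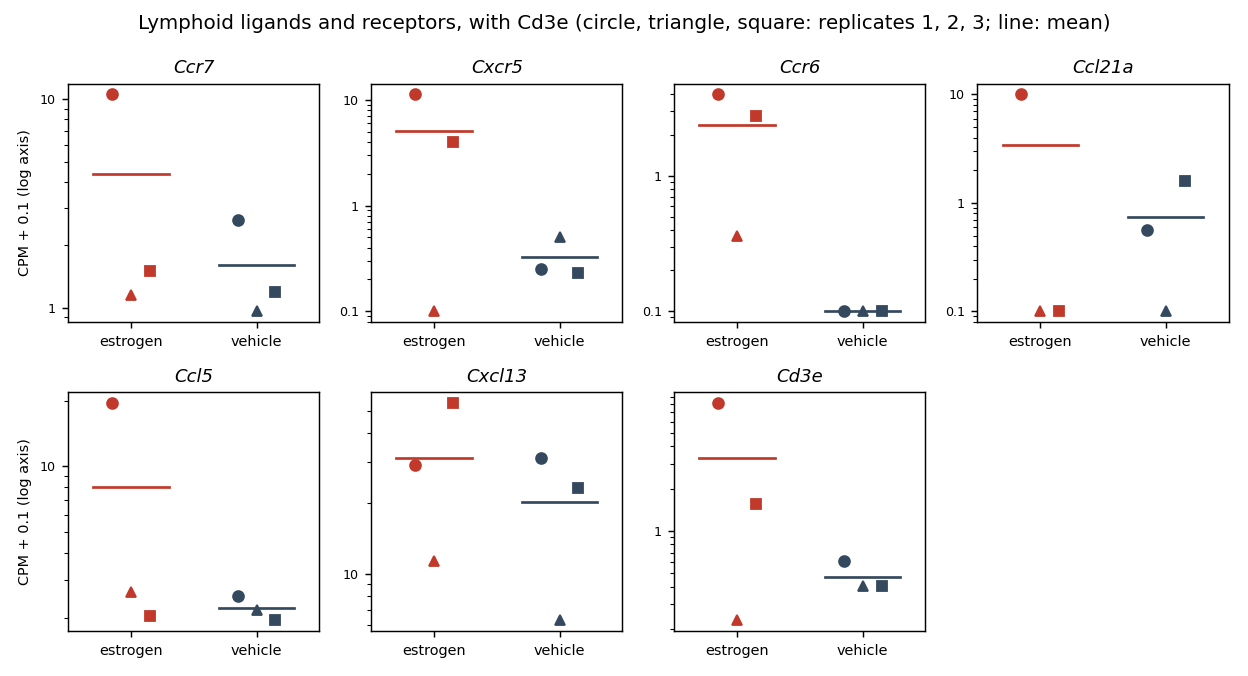
CPM plus 0.1 (log axis) of 6 lymphoid ligands and receptors and of the T cell gene Cd3e in each library, with estrogen left and vehicle right, symbols for replicates and lines for group means. Cxcr5 and Ccr6 are high in estrogen replicates 1 and 3, and Ccr7, Ccl21a, Ccl5 and Cd3e are highest in estrogen replicate 1.

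Summed lymphocyte markers were highest in estrogen replicate 1. The summed level of 10 B cell markers was 198, 7.33 and 131 CPM in estrogen replicates 1 to 3 and 5.03 to 8.20 CPM with vehicle, and all 5 tested were positive (median 3.41). The sum of 13 T and NK cell markers was 106, 8.90 and 17.6 CPM with estrogen and 4.96 to 7.85 CPM with vehicle, with 9 of 9 tested positive (median 2.91). Of 8 lymph node stroma markers found, 5 were tested and 4 were positive (median 0.45), while Bst1 was negative (-1.09). The sum of the 8 was 318 to 439 CPM with estrogen and 251 to 371 CPM with vehicle. Most of it was Enpp2, at 298, 255 and 357 CPM with estrogen and 195, 187 and 284 CPM with vehicle. Glycam1, a mucin of lymph node venules, had 37, 1 and 4 counts with estrogen and 2 counts in each vehicle library. Madcam1, of the same list, had 17, 21 and 8 counts with estrogen and 21, 7 and 7 counts with vehicle. Cxcr6, the Cxcl16 receptor of T cells, was at 3.78, 0.917 and 1.04 CPM with estrogen and at 0.965, 0.911 and 1.04 CPM with vehicle, and without estrogen replicate 1 its log2 fold change of 0.99 was -0.0026. The inguinal fat pad encloses a lymph node, and the part of node tissue in these libraries was not tested.

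The other members that did not pass the filter were at low counts throughout. Xcr1, Ccr9, Ccr4, Xcl1 and Cxcr1 had 11 to 47 counts over the 6 libraries, and Ccr1l1, Ccr8, Ccl27b, Ccl20 and Cxcl17 had 3 to 10. Ccr4 had 16, 0 and 3 counts with estrogen and 0, 0 and 4 counts with vehicle, and Ccr8, the mouse receptor of Ccl8, had 8, 0 and 0 counts with estrogen and 0, 0 and 1 count with vehicle. A second entry of Ccl27a had 8 counts in all and a further one had none. Differences in these members were not detectable at this depth.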

How the data were processed

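RNA was sequenced from iWAT of old mice after 7 days of cold in 3 estrogen and 3 vehicle libraries, with groups and replicate numbers taken from the sample titles. Raw read counts for each gene, without normalization, were deposited by the authors together with gene lengths in bases. Reads were aligned with HISAT2 and counted with featureCounts on mm10, per the submitters' processing notes, and versions, strand setting and multi-mapping treatment do not appear in those notes. All 67 member identifiers had the same start and end in GENCODE M21.

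Members were all protein-coding entries whose symbols begin with a chemokine or chemokine receptor name. The members, the 12 gene lists and the role groups were chosen with earlier results of these data known. Counts were TMM-scaled and filtered with filterByExpr, which kept 15591 genes, and the estrogen effect was tested with edgeR's quasi-likelihood method with Benjamini-Hochberg adjustment over all of them, at 0.05. Standard errors come from the F statistic. CPM values are TMM-scaled, and 3 counts, taken as the detection floor, equal 0.130 to 0.209 CPM, for counting error only. Software was edgeR 4.0.16, DESeq2 1.42.0 and limma 3.58.1 under R 4.3.3, and the test was tested on simulated data. Libraries of 1 group never agreed within sampling noise (chi-square per degree of freedom 41.7 to 88.6). Genes were named as the 16 members of smallest p, the member of highest per-length level in each role, both sides of fixed ligand-receptor pairs and, per pathway list, the 4 of smallest p. Further members were named after their values were seen. The motif letters were chosen after matches in these promoters had been seen. Genes without a DESeq2 adjusted p were left out of its percentages. In all 15 alternatives were tried, covering scaling, filter, test, a replicate block and left-out libraries. Some counted members and markers are not reported here by name.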

Additional observations from a re-analysis of the deposited data

How the results depend on the processing

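Across the 15 alternatives, 22 of the 32 named members kept the sign of their log2 fold change. The number of genes called was 0 by edgeR with all libraries, 854 by DESeq2 and 1 without both estrogen replicates 1 and 3, and DESeq2 called 5 members. The 19 members lower at an unadjusted p under 0.05 were 9 to 20 when single libraries were left out, 4 without both estrogen replicates 1 and 3 (9.52%, against 4.31% of all genes), and 4 without both vehicle replicates 1 and 2 (9.52%, against 1.42%). With single libraries left out, the share of all genes lower at that p was 5.2 to 11.3%. In the fits that leave 1 library in a group, that library is assumed to vary like the others. The ligand median of -0.98 was -0.52 without both vehicle replicates 1 and 2. Scaling by library totals alone moved the median of all genes to -0.17, and the member median relative to it was -0.86, against -0.87 with TMM.

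The sign turned in the other 10. Without both estrogen replicates 1 and 3 the log2 fold changes were 0.15 for Ccl27a, -0.84 for Cxcl13, -0.70 for Cxcl10, -0.50 for Ccr7, 0.040 for Cxcr4, -0.12 for Cxcr3 and -0.080 for Cxcr6. With single libraries left out, the ranges were -0.0045 (without estrogen replicate 3) to 1.08 for Cxcl13, -0.25 (without estrogen replicate 3) to 0.67 for Cxcl10, -1.28 to 0.0056 (without vehicle replicate 3) for Cxcl14 and -1.37 to 1.60 (without vehicle replicate 1) for Cxcr2. Without estrogen replicate 1 the lowest values were reached by Ccr7 (-0.30, up to 2.14), Cxcr3 (-0.090, up to 0.39) and Cxcr6 (-0.0026, up to 1.32). Without vehicle replicate 2 Cxcl10 was at -0.16. Cxcr2 was at 1.39 without both vehicle replicates 1 and 2, 0.24 by limma-voom and 0.027 with the replicate block. Cxcl12 was at -0.034 under library totals and -0.16 without both vehicle replicates 1 and 2, and Cxcl10 was at -0.044 under library totals. The cause was not tested.

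The replicate numbers of the sample titles are shared by the groups but are not said to pair animals. For replicate 2 the submitters' own library numbers differ between the groups. Same-numbered libraries correlated in their deviations from the group means at r of -0.12, 0.16 and 0.29 across genes, and estrogen replicates 1 and 2 correlated best with another number. With the replicate block 0 members were called (smallest adjusted p = 0.0618), the ligand median was -0.96 and the receptor median -0.81. Depth limits the members at a few counts, for which no difference could be seen.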
